A study of Saccharomyces cerevisiae with 35 samples.

Results

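The 56 genes described here encode ribosome biogenesis factors of budding yeast, the nucleolar and nuclear proteins that cut, modify, fold and package pre-ribosomal RNA. They were chosen by name and known role from the 6717 genes of the count table, by a rule that uses no measured value: 5 core proteins of the small nucleolar ribonucleoproteins (snoRNPs), 25 factors of the small-subunit processome and 26 large-subunit assembly factors, helicases, GTPases and export factors. RNA was sequenced from 4 strains: the laboratory strain BY4743, and the wild strains BC187 (Wine/European lineage), NCYC3290 (West African lineage) and YPS128 (North American lineage). Each strain was grown in rich medium (YPD) and sampled unstressed (0 h), and then 30 min and 3 h after NaCl was added to 0.7 M. No gene was altered for the experiment, BY4743 carries the auxotrophic deletions of its strain background, and each lineage was represented by 1 strain. The time points of a replicate came from the same culture, and there were 3 biological replicates per group except YPS128 at 30 min, which had 2 libraries. The question addressed here is how the genes of this pathway responded to salt in each strain, how fast, and whether their levels already differed before salt.

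Ribosome production starts in the nucleolus, where RNA polymerase I transcribes a long pre-rRNA. The small-subunit processome (the UTP-A and UTP-B complexes, the MPP10 complex and the U3 snoRNP) assembles on the growing transcript, and the pre-rRNA is then cut so that the small and large subunits mature along separate routes, with DEAD-box helicases remodelling the RNA and GTPases gating late steps before nuclear export. In yeast the genes of this pathway are known to be transcribed coordinately, to fall in many stresses, and to share 2 promoter elements, PAC and RRPE, which are bound by the repressors Dot6 and Tod6 (PAC) and Stb3 (RRPE).

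The 2 elements were searched in the 250 bases before to the 50 bases after each coding start in the RefSeq S288C reference (build R64), for 5987 genes and on both strands. The letters GATGAG (the PAC core, CTCATC on the other strand) stood in 53 of the 56 windows (94.6%), against 20.4% of all genes, and AAAAATTT (the RRPE core, AAATTTTT on the other strand) stood in 49 (87.5%), against 14.2% of all genes. Both were present in 47 windows (83.9%), against 5.65% of all genes. The longer PAC form GCGATGAG, which contains the core, stood in 62.5% of the members and 3.94% of all genes, and the stress element core AGGGG stood in 12.5% of the members and 21.6% of all genes. The search does not say whether a factor binds, and the wild strains' own promoters were not read. The stretches below show the closest PAC and RRPE pair of 8 members whose values are described later. They are written 5′ to 3′ on the coding strand, with PAC and RRPE cores in capitals, and were chosen because they carry the 2 shared elements in genes that behaved differently in salt.
NSR1, chrVII:807828-807871, minus strand: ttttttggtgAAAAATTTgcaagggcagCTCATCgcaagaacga
NOP1, chrIV:427130-427175, plus strand: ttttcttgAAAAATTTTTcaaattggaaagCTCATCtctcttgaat
CIC1, chrVIII:210698-210740, plus strand: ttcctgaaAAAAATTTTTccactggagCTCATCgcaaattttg
RLP24, chrXII:166287-166346, plus strand: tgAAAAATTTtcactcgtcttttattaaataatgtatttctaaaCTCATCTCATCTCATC
CBF5, chrXII:505979-506018, plus strand: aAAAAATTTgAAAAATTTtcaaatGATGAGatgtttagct
RPF1, chrVIII:281375-281411, plus strand: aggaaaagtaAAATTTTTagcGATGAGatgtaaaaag
NUG1, chrV:162569-162635, plus strand: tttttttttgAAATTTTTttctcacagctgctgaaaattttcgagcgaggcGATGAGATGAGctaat
YTM1, chrXV:832644-832686, plus strand: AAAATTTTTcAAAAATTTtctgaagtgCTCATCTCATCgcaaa

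Of the 85 PAC core matches in the members, 82 lay before the coding start, at a median of 116.5 bases (quartiles 92.75 and 132) from it. All 77 RRPE core matches lay before the start, at a median of 135 bases (quartiles 115 and 161). PAC without RRPE was found at UTP13, MPP10, UTP7, MAK5, DBP10 and NOC3, RRPE without PAC at UTP15 and UTP30, and neither at UTP22.

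**Figure D1:**
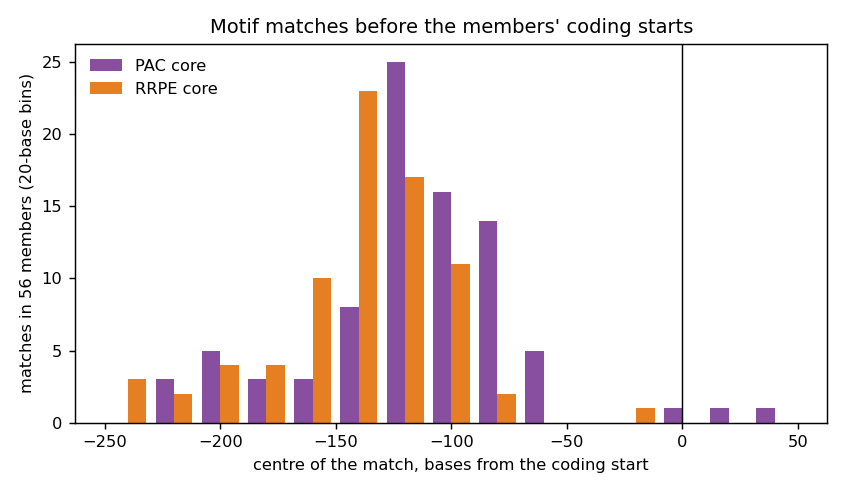
Histogram of the centres of all PAC core (purple) and RRPE core (orange) matches in the promoter windows of the 56 members, as matches per bin (y axis) against bases from the coding start (x axis, negative before the start, which the vertical line marks). The PAC matches have a median of 116.5 bases and the RRPE matches a median of 135 bases before the start.

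The libraries held 3629637 to 5866906 counts (median 4732586), and the lowest count of any member in any library was 49. All 56 members passed the filter on low counts. Every 100-base window of every member was unique in the reference genome, and NOG2 was the only member that overlapped another annotated gene, a small nucleolar RNA in its intron. The BY4743 labels were checked by URA3 and LEU2, auxotrophic deletions of the laboratory strain. Each of its 9 libraries held 0 counts of either gene, and wild libraries held at least 143 and 209 counts. These genes do not tell the wild strains apart, so labels among those were not checked. These facts bear on the results: the fits did not use YPS128 replicate 3 at 3 h (its 30 min library was not analysed here), MAK5 stood apart in BY4743 replicate 1 at 30 min, and NCYC3290 replicates 1 and 2 stood apart from each other at 30 min. Levels are given as CPM (counts scaled to a common library total) after TMM normalization, which assumes that most genes do not change. A fall in CPM is a fall relative to the other RNAs, and fewer transcribing cells cannot be told apart from less RNA per cell.

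In unstressed cells the members were spread over a range of 11.4 times when compared per kb of gene length (median over the 56 genes 146 CPM per kb). Genes of 4 of the 5 snoRNP core proteins had the highest levels. NOP1, the fibrillarin methyltransferase of box C/D snoRNPs, averaged 684 ± 159 CPM per kb (SD, n = 12 libraries of the 4 strains). CBF5, the pseudouridine synthase of box H/ACA snoRNPs, averaged 509 ± 135 CPM per kb, NOP56 502 ± 75.4 and NOP58 415 ± 58.5, and the order of neighbours among these lies within their spread. The GTPase gene NOG1 (401 ± 86.3 CPM per kb) and the nucleolin-like NSR1 (364 ± 107 CPM per kb) followed, and GAR1, the fifth snoRNP core gene, had rank 11 (299 ± 52.1 CPM per kb). The lowest members were UTP30 (61.5 ± 12.3 CPM per kb), the AAA ATPase gene RIX7 (61.1 ± 6.17 CPM per kb) and the helicase gene SPB4 (59.9 ± 8.42 CPM per kb), which did not differ beyond their spread.

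Together the 56 genes took a small share of each library, and that share fell at different times in the 4 strains. In BY4743 it was 1.37% to 1.70% of counts in unstressed cells, 0.610% to 0.732% at 30 min and 0.515% to 0.641% at 3 h. In BC187 it was 1.70% to 2.03% unstressed, 1.61% to 1.72% at 30 min and 0.653% to 0.884% at 3 h. NCYC3290 had 1.76% to 1.91% unstressed, 1.07% to 2.16% at 30 min and 0.778% to 0.913% at 3 h, and YPS128 had 1.30% to 1.87%, 1.10% to 1.42% and 0.882% to 1.14%. The BY4743 libraries had thus already left their unstressed range at 30 min, while the 30 min shares of the 3 wild strains still overlapped theirs.

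**Figure D2:**
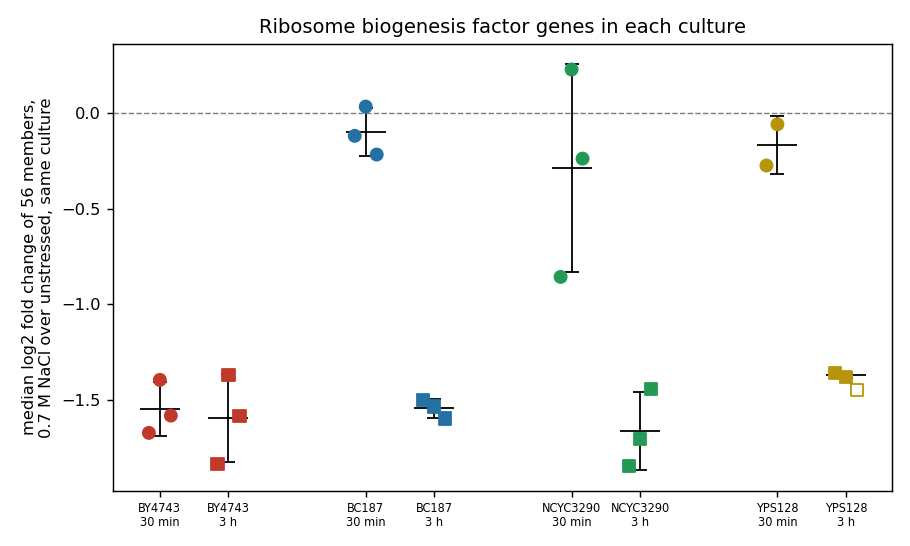
Median over the 56 members of the log2 difference between a NaCl library and the unstressed library of the same culture (y axis), for each culture of each strain at 30 min and 3 h (x axis), with lines for the mean and bars for ± 1 SD. The open square is YPS128 replicate 3, which is in neither mean nor SD. BY4743 cultures lie between −1.67 and −1.40 at 30 min, whereas BC187 cultures lie between −0.22 and 0.03, and at 3 h the cultures of all 4 strains lie between −1.84 and −1.36.

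Within cultures, the median member differed from its unstressed level by −1.55 ± 0.14 (log2, SD, n = 3) in BY4743 at 30 min. The corresponding 30 min values were −0.10 ± 0.13 in BC187 (n = 3), −0.29 ± 0.54 in NCYC3290 (n = 3) and −0.17 ± 0.15 in YPS128 (n = 2). At 3 h they were −1.60 ± 0.23 in BY4743, −1.54 ± 0.05 in BC187, −1.66 ± 0.20 in NCYC3290 (n = 3 each) and −1.37 ± 0.013 in YPS128 (n = 2). The NCYC3290 cultures were spread widely at 30 min, with −0.86, 0.23 and −0.24 in replicates 1 to 3.

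At 30 min in BY4743 the pathway was lowered nearly as a whole. By edgeR's quasi-likelihood test (Benjamini-Hochberg adjusted p under 0.05 over all 5997 genes tested), 55 of the 56 members fell, where 29.3% of all genes fell, and the members' median log2 difference was −1.49, against 0.06 for all genes. For 47 members the fitted fall was at least 2-fold and for 15 at least 4-fold. In 55 members every 30 min library was below every unstressed library, which held for 27.8% of all genes. The falls were uneven in size: the SD of the members' log2 differences was 0.69, against 0.30 for the same strain at 3 h.

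Among the small-subunit genes of BY4743, NSR1, which encodes a nucleolar RNA-binding protein needed for early pre-rRNA cleavage, fell most. NSR1 (YGR159C, chrVII:806412-807656) had 16.2, 24.2 and 39.2 CPM at 30 min, against 273, 420 and 256 CPM in unstressed cells. Its log2 difference was −3.58 ± 0.28 (SE, edgeR adjusted p = 7.65e-12), the most negative of the 56. RRP5, a large RNA-binding protein needed for both subunits, had 382, 533 and 517 CPM at 30 min, against 1472, 1547 and 1913 CPM in unstressed cells (log2 difference −1.81 ± 0.17, edgeR adjusted p = 4.67e-10). The 6 UTP-A genes, which open processome assembly, all fell with a median of −1.54, the 4 UTP-B genes fell with a median of −1.55, and the 3 MPP10 complex genes with a median of −1.44. UTP10 was the UTP-A gene with the smallest fall (−1.06 ± 0.24, edgeR adjusted p = 2.96e-04), and its replicate 3 at 30 min, 618 CPM, lay nearest to the lowest unstressed library, 809 CPM. MPP10 fell by 1.37 ± 0.21 and IMP3, which joins U3 to the pre-rRNA, fell by 1.45 ± 0.21 on the log2 scale (edgeR adjusted p = 1.74e-06 and 8.58e-07).

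The snoRNP core genes fell as well. NOP1 (YDL014W, chrIV:427364-428347) had 86.3, 64.3 and 118 CPM in BY4743 at 30 min, against 546, 698 and 360 CPM in unstressed cells (log2 difference −2.53 ± 0.27, edgeR adjusted p = 2.81e-09). Its box C/D partners NOP56 and NOP58 fell by less, −1.34 ± 0.18 and −1.44 ± 0.15 (edgeR adjusted p = 1.41e-07 and 2.55e-09). The box H/ACA genes CBF5 and GAR1 had log2 differences of −1.81 ± 0.17 and −2.09 ± 0.17 (edgeR adjusted p = 1.6e-10 and 1.1e-11).

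Among large-subunit genes of BY4743, the group of GTPases, RIX7 and export factors had the lowest median at 30 min, −2.19, with 6 of 6 called. RLP24, a protein that holds the place of a ribosomal protein on nuclear pre-60S particles, had 27.3, 23.0 and 23.0 CPM, against 188, 130 and 172 CPM in unstressed cells (log2 difference −2.75 ± 0.23, edgeR adjusted p = 2.1e-11). NOG1, a pre-60S GTPase, and ARX1, an export factor, had log2 differences of −2.45 ± 0.21 and −2.46 ± 0.23 (edgeR adjusted p = 2.84e-11 and 2.6e-10). NUG1, another GTPase of the same group, had 174, 220 and 204 CPM at 30 min, against 307, 282 and 320 CPM in unstressed cells, a difference of −0.63 ± 0.16 (edgeR adjusted p = 0.00146). The group thus held both a member near the lower end of the whole set and one of the smallest falls in it.

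The 14 early large-subunit assembly factors all fell in BY4743 at 30 min, with a median of −1.72. CIC1 had 27.6, 34.3 and 48.0 CPM, against 228, 179 and 221 CPM in unstressed cells (log2 difference −2.54 ± 0.20, edgeR adjusted p = 6.32e-12). NOP7, the pescadillo homologue, which works in 1 complex with ERB1 and YTM1, fell by 1.19 ± 0.21, and NOC2, a partner in nuclear particle export, fell by 1.49 ± 0.20 on the log2 scale (edgeR adjusted p = 1.91e-05 and 1.82e-07). RPF1, a Brix-domain protein of the early large subunit, had the smallest fall of this group at −0.74 ± 0.22 (edgeR adjusted p = 0.0046).

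The helicases held the 1 member that was not called. DBP3 fell by 2.30 ± 0.20 and HAS1, a helicase for both subunits, fell by 1.72 ± 0.19 on the log2 scale (edgeR adjusted p = 6.18e-11 and 6.79e-09), and SPB4 fell by 0.68 ± 0.18 (edgeR adjusted p = 0.00133). MAK5 (YBR142W, chrII:528317-530638) had 1133, 99.6 and 69.7 CPM in BY4743 replicates 1 to 3 at 30 min, against 232, 185 and 222 CPM in unstressed cells, and was not called (log2 difference 0.85 ± 0.58, edgeR adjusted p = 0.209). Replicate 1 held 6933 MAK5 counts where replicates 2 and 3 held 502 and 267, while the adjacent genes YBR141C and YBR143C had 31 and 2216 counts in replicate 1, within 20 to 38 and 2010 to 2216 over the 3 libraries. Without this library, a check added after seeing the data, MAK5 had a log2 difference of −1.37 (edgeR adjusted p = 1.32e-05), 56 of 56 members fell and their median was −1.38. The SE of MAK5 was 0.56 to 0.69 in the 4 strains.

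Shorter member genes had the lower log2 differences in BY4743 at 30 min. The 14 shortest (up to 1245 bases) had a median of −2.06 and the 14 longest (from 2259 bases) a median of −1.20. Across the 56 members Spearman's rho between length and log2 difference was 0.331, against 0.097 across 5761 genes. These genes share libraries and are not independent, so the values are a description.

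**Figure D3:**
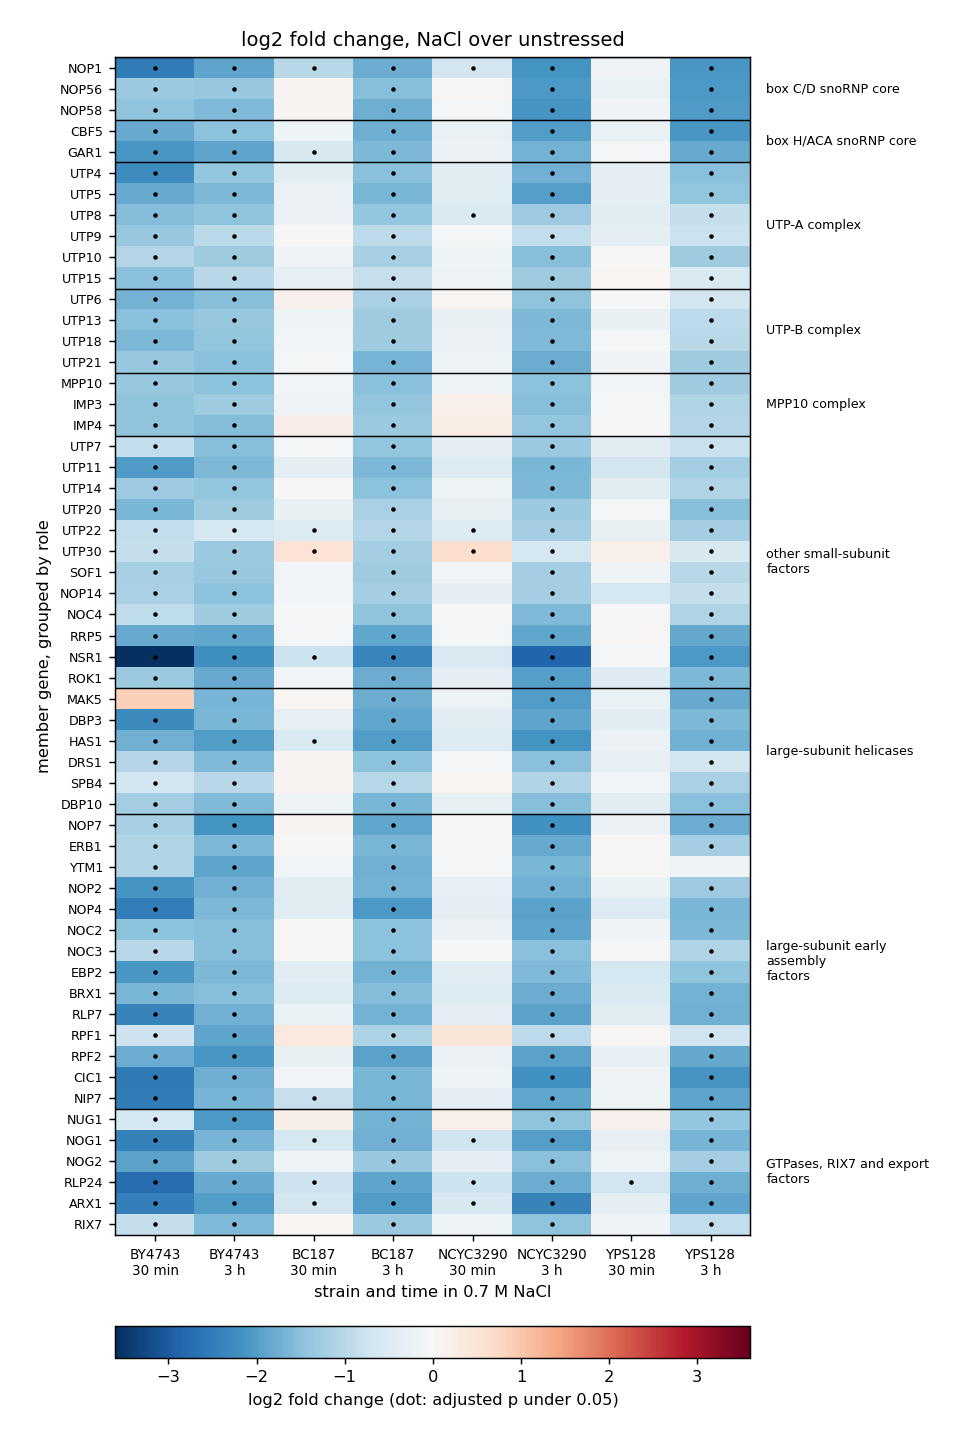
Log2 difference from unstressed (colour scale) of each of the 56 members (rows, grouped by role) in the 4 strains at 30 min and 3 h (columns), with a dot where the edgeR adjusted p was under 0.05. The BY4743 30 min column and all 3 h columns are low, apart from MAK5 at 0.85 in BY4743 at 30 min and YTM1 at −0.17 in YPS128 at 3 h.

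In the wild strains few members were called at 30 min. By the test, members fell about as often as all genes in BC187 and NCYC3290, and less often in YPS128. In YPS128 the libraries themselves gave another picture: members lay below the whole unstressed range more often than all genes, as given below. In BC187, 9 of 56 members fell, where 15.8% of all genes fell, and 1 rose, where 18.2% of all genes rose (edgeR adjusted p under 0.05). The members' median was −0.11, against −0.03 for all genes. The 9 were NOP1, NIP7, NSR1, RLP24, ARX1, NOG1, GAR1, HAS1 and UTP22, and 7 of them also lie in the lower part of the BY4743 list with differences of −2.09 or lower. NOP1 had 412, 329 and 276 CPM in BC187 at 30 min, against 739, 720 and 558 CPM in unstressed cells (log2 difference −0.99 ± 0.25, edgeR adjusted p = 0.00236). NIP7, a nucleolar factor of pre-60S processing, had 80.6, 81.5 and 83.7 CPM, against 145, 174 and 127 CPM in unstressed cells (−0.84 ± 0.18, edgeR adjusted p = 5.76e-04). Groups failed to overlap downward in 15 members, which held for 25.7% of all genes, so this share was near that of all genes.

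The member that rose was UTP30, which encodes a non-essential processome protein related to ribosomal protein L1. UTP30 had 81.1, 76.0 and 83.7 CPM in BC187 at 30 min, against 58.8, 47.4 and 64.2 CPM in unstressed cells (log2 difference 0.50 ± 0.17, edgeR adjusted p = 0.0259). In NCYC3290 it had 63.0, 79.1 and 69.6 CPM, against 53.1, 43.7 and 46.0 CPM in unstressed cells (0.59 ± 0.18, edgeR adjusted p = 0.012). In both strains every 30 min library was above every unstressed library. In YPS128 it had 55.3 and 71.2 CPM, against 67.2, 44.2 and 59.6 CPM in unstressed cells, which overlap (0.19 ± 0.20, edgeR adjusted p = 0.574). In BY4743 it fell (−0.87 ± 0.19, edgeR adjusted p = 1.79e-04). Neither rise was called with library totals in place of TMM, and the block by culture lost the one in BC187. The BC187 rise was also lost without replicate 1, 2 or 3 in turn, and the NCYC3290 rise without replicate 2, without replicate 3 and without the NCYC3290 replicate 2 library at 30 min.

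In NCYC3290 at 30 min, 6 members fell, where 10.8% of all genes fell, and UTP30 alone rose, where 16.5% of all genes rose. The members' median was −0.22, against −0.0040 for all genes. RLP24 had 73.2, 171 and 101 CPM at 30 min, against 239, 198 and 179 CPM in unstressed cells (log2 difference −0.77 ± 0.21, edgeR adjusted p = 0.00543), and NOG1, NOP1, ARX1, UTP8 and UTP22 were also called, at −0.71 to −0.50. For 4 members no 30 min library reached the unstressed range, against 17.8% of all genes. These counts rest on which of the cultures is included. Without replicate 1 at 30 min 3 members fell and 2 rose (median −0.07), without replicate 2 at 30 min 37 fell (median −0.61), and without BY4743 replicate 1 at 30 min 11 fell, all added after seeing the data. Nothing in the labels sets either NCYC3290 culture apart.

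In YPS128 at 30 min 1 member fell, where 5.94% of all genes fell. This was RLP24, with 126 and 137 CPM at 30 min, against 248, 183 and 215 CPM in unstressed cells (log2 difference −0.69 ± 0.24, edgeR adjusted p = 0.0493). The members' median was −0.19, against −0.01 for all genes. The 2 NaCl libraries were below all 3 unstressed ones in 22 members, against 19.8% of all genes. NSR1, which had fallen furthest in BY4743, had 521 and 391 CPM, against 400, 539 and 486 CPM in unstressed YPS128 (−0.08 ± 0.28, edgeR adjusted p = 0.892). The call was near the threshold. It was lost without replicate 1 or replicate 3, with the block by culture, without the filter and with library totals, and between 0 and 6 members fell over the alternatives.

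The 10 members lowest in BY4743 at 30 min (NSR1, RLP24, CIC1, NOP1, NIP7, NOP4, ARX1, NOG1, RLP7 and DBP3) had a median of −2.50 there. In the wild strains the same 10 genes had medians of −0.65 in BC187, −0.48 in NCYC3290 and −0.32 in YPS128. The 10 members highest in BY4743 at that time had a median of −0.87 there, against 0.07 in BC187, −0.01 in NCYC3290 and −0.06 in YPS128. The 10 lowest were therefore the lower set in each strain, a description of genes picked by their BY4743 values.

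At 3 h the pathway was low in all 4 strains. All 56 members fell in BY4743, where 20.4% of all genes fell, all 56 in BC187 (23.9% of all genes), all 56 in NCYC3290 (27.4%) and 55 in YPS128 (29.1%), by edgeR's test with adjusted p under 0.05. The members' medians were −1.59, −1.59, −1.64 and −1.36 in that order, against 0.04, 0.08, 0.07 and 0.09 for all genes. A fall of at least 2-fold was fitted for 53, 54, 53 and 44 members. Among the fitted libraries of every strain, each of the 56 had all its 3 h libraries below all its unstressed libraries. This held for 22.4% of all genes (BY4743), 25.8% (BC187), 28.5% (NCYC3290) or 35.0% (YPS128). The YPS128 comparison leaves out replicate 3 at 3 h. In that library UTP30 (46.2 CPM) and RPF1 (56.4 CPM) lay above their lowest unstressed YPS128 libraries (44.2 and 54.7 CPM). The 30 min and 3 h comparisons of a strain share their unstressed libraries.

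The size of the 3 h fall depended on the scaling, most in YPS128, then in NCYC3290, and least in BY4743. With library totals in place of TMM factors the median of all genes stood at 0.85 in YPS128, 0.65 in NCYC3290, 0.34 in BC187 and 0.19 in BY4743. The members' medians were then −0.60, −1.07, −1.33 and −1.44, and 30 members fell and 1 rose in YPS128, 52 fell in NCYC3290, and 56 fell in each of BC187 and BY4743. In each strain the members' median stood below that of all genes under both scalings.

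NSR1 was again at or near the lower end at 3 h. It had 49.3, 94.5 and 58.6 CPM in BY4743, 125, 105 and 84.8 CPM in BC187, 49.99, 83.4 and 55.4 CPM in NCYC3290 and 125, 100 and 108 CPM in YPS128, all below the lowest unstressed library of the same strain. The log2 differences were −2.21 ± 0.26, −2.37 ± 0.26, −2.86 ± 0.27 and −2.08 ± 0.30 (edgeR adjusted p = 3.75e-08, 6.82e-09, 2.51e-10 and 7.29e-07). Beside it, the lowest were NOP7 in BY4743 (−2.14 ± 0.22), NOP4 in BC187 (−2.07), ARX1 in NCYC3290 (−2.41 ± 0.23) and CIC1 and CBF5 in YPS128 (−2.11 ± 0.22 and −2.10 ± 0.20). The smallest falls were those of UTP22 and UTP9 in BY4743 (−0.62 and −0.98), UTP15 and UTP9 in BC187 (−0.84 and −0.94), and UTP30 and UTP9 in NCYC3290 (−0.65 and −0.88). In YPS128 they were those of YTM1 (−0.17), which was not called, and UTP15 (−0.55). Apart from YTM1, a large-subunit factor, these genes passed the test and belong to the small-subunit processome.

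**Figure D4:**
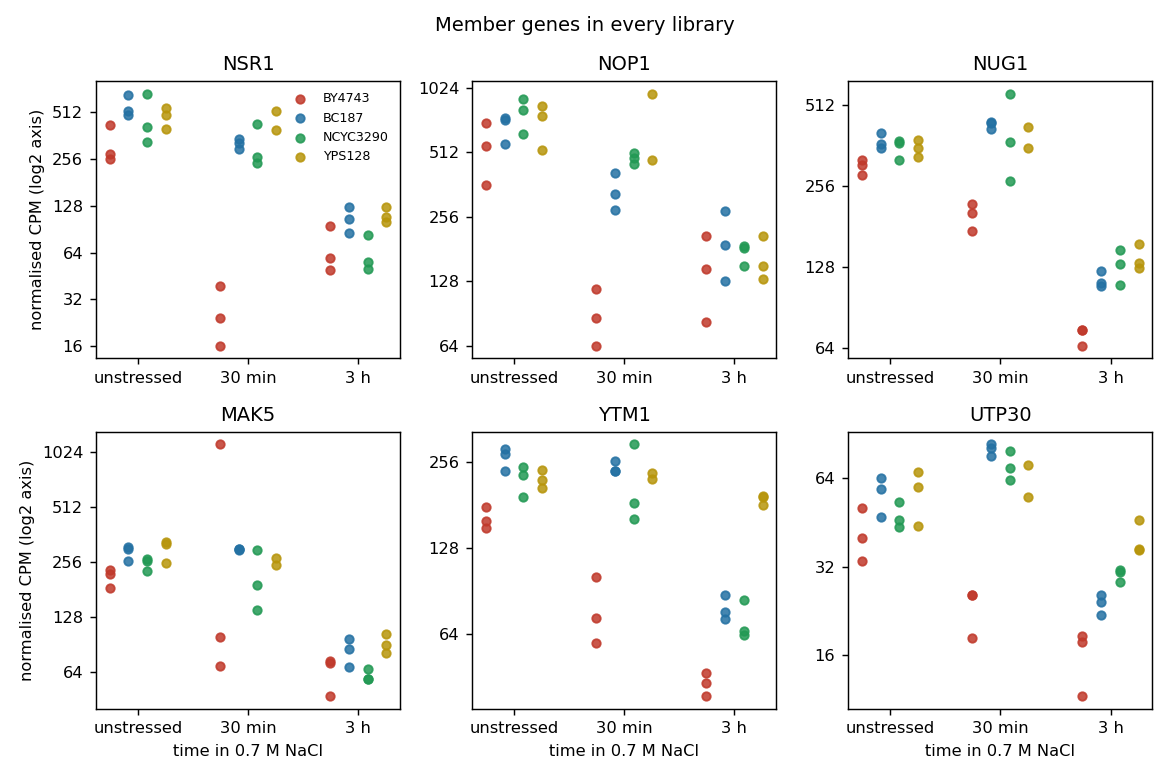
CPM in every library (y axis, log2 axis) of NSR1, NOP1, NUG1, MAK5, YTM1 and UTP30, by time (x axis: unstressed, 30 min, 3 h) and strain (colour), with 1 point per library. NSR1 is at 16.2 to 39.2 CPM in BY4743 at 30 min, MAK5 has 1 library at 1133 CPM there, and YTM1 stays at 181 to 194 CPM in YPS128 at 3 h.

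By role, the order at 3 h was not the same in all strains. In YPS128 the box C/D genes had a median of −2.06 and the box H/ACA genes one of −1.96, against −1.06 for UTP-A, −0.98 for UTP-B and −1.09 for the MPP10 complex. In BY4743 the same groups ran closer together: −1.59 (box C/D), −1.69 (box H/ACA), −1.34 (UTP-A), −1.46 (UTP-B) and −1.46 (MPP10 complex). The early large-subunit factors had medians of −1.70 in BY4743 and −1.67 in BC187, with −1.85 for NCYC3290 and −1.63 for YPS128. Differences between groups of genes were not tested.

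The exception in YPS128 was YTM1, a WD-repeat protein that binds ERB1 and NOP7 and is released from pre-60S particles by the ATPase Rea1. YTM1 (YOR272W, chrXV:832813-834195) had 192, 194 and 181 CPM in YPS128 at 3 h, against 221, 207 and 239 CPM in unstressed cells. The replicate 3 library at 3 h, 181 CPM, is shown but was not in the fit. The log2 difference was −0.17 ± 0.20 (edgeR adjusted p = 0.47), and with library totals it was 0.58 (edgeR adjusted p = 0.0181). In the other strains it fell, to 38.9, 46.9 and 43.2 CPM in BY4743, 76.3, 72.4 and 87.6 CPM in BC187 and 63.4, 84.1 and 65.5 CPM in NCYC3290 (−1.90, −1.72 and −1.64). Its complex partners ERB1 and NOP7 did fall in YPS128, NOP7 to 188, 169 and 225 CPM at 3 h, against 700, 557 and 641 CPM in unstressed cells (−1.78 ± 0.25, edgeR adjusted p = 5.02e-07).

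Between 30 min and 3 h the strains moved differently. The 3 h level was lower than the 30 min level in 56 of 56 members in BC187, where 23.8% of all genes were lower, in 56 in NCYC3290 (27.1% of all genes) and in 48 in YPS128 (26.3%), by edgeR's test with adjusted p under 0.05. The median differences were −1.43, −1.49 and −1.13. The 8 members with no call in YPS128 were MAK5, UTP11, UTP8, UTP9, UTP7, DRS1, NOP14 and YTM1. Of these, MAK5 had 246 and 269 CPM at 30 min, against 90.7 and 81.5 CPM at 3 h in the fitted libraries. Its missing call stands beside this fall and the wide SE of MAK5 given above. With library totals 13 members were lower and 1 higher in YPS128. Without NCYC3290 replicate 2 at 30 min 54 members were lower in that strain.

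In BY4743 the members did not move as a set between the times, and their median difference was 0.05. At 3 h 11 were lower than at 30 min, where 25.6% of all genes were lower. Another 12 were higher, where 23.5% of all genes were higher. Both counts lie near the shares of all genes, so the genes named next describe single members. NSR1 was higher (log2 difference 1.37 ± 0.27, edgeR adjusted p = 1.47e-04), followed by RLP24 (0.93 ± 0.23, edgeR adjusted p = 0.00131), UTP4 (0.85) and NOP4 (0.85). The others were NIP7, CIC1, NOG1, RLP7, NOG2, DBP3, NOP1 and UTP15. MAK5 was lower (−2.52 ± 0.62, edgeR adjusted p = 0.0021), in a comparison that includes the library at 1133 CPM, and NUG1 was lower at 65.4, 74.5 and 74.9 CPM at 3 h, against 174, 220 and 204 CPM at 30 min (−1.43 ± 0.17, edgeR adjusted p = 7.34e-08). RPF1 (−1.15 ± 0.24, edgeR adjusted p = 2.38e-04), NOP7 (−0.95) and YTM1 (−0.81) were lower too. These values and the NaCl differences at 30 min rest on the same 30 min libraries. Without BY4743 replicate 1 at 30 min 9 were lower and 11 higher.

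Each strain's NaCl response was then tested against the mean response of the 4 strains, which includes the strain itself. At 30 min the BY4743 response was lower than the mean in 55 members, where 22.9% of all genes were lower (edgeR adjusted p under 0.05), with a median difference of −1.01, against 0.01 for all genes. The largest differences were those of NSR1 (−2.33 ± 0.23, edgeR adjusted p = 6.09e-09) and CIC1 (−1.81 ± 0.17, edgeR adjusted p = 1.61e-09), and MAK5 was not called (0.74 ± 0.51, edgeR adjusted p = 0.248). With library totals 44 members were lower.

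For the wild strains few 30 min differences passed the test. Differences from a mean that includes BY4743 sum to about 0 over the strains, so the low BY4743 values set positive ones in the others, as for NSR1, whose own change in YPS128 was −0.08. In BC187 2 members were higher than the mean response, CIC1 (0.64 ± 0.16, edgeR adjusted p = 0.0299) and NOP58 (0.48 ± 0.13, edgeR adjusted p = 0.0427), where 1.2% of all genes were higher. In NCYC3290 2 were higher, NIP7 (0.61 ± 0.16, edgeR adjusted p = 0.0384) and GAR1 (0.51 ± 0.14, edgeR adjusted p = 0.0426), where 0.917% of all genes were higher. In YPS128 12 were higher, where 4.22% of all genes were higher, led by NSR1 (1.17 ± 0.23, edgeR adjusted p = 0.00131) and NOP1 (0.95 ± 0.23, edgeR adjusted p = 0.00873). The medians were 0.39, 0.31 and 0.30. These counts move with the NCYC3290 cultures: without replicate 2 at 30 min they were 29, 0 and 23, and without replicate 1 at 30 min they were 3, 18 and 11, in the order BC187, NCYC3290 and YPS128. Without all libraries of replicate 1 they were 0, 1 and 0. DESeq2's Wald test gave 6, 6 and 12.

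At 3 h few members' responses passed the test. In BY4743 RPF1 (−0.72 ± 0.20, edgeR adjusted p = 0.00954), YTM1 (−0.54 ± 0.16, edgeR adjusted p = 0.0119) and NUG1 (−0.41 ± 0.15, edgeR adjusted p = 0.0404) fell further than the mean, 3 members where 11.9% of all genes were lower. UTP22, which carries neither element in its window, fell less in BY4743 (0.42 ± 0.13, edgeR adjusted p = 0.02), the 1 member higher, where 10.6% of all genes were higher. The lower calls in BY4743 were lost without replicate 1 and without replicate 3, the higher call without replicate 1 and without replicate 2, and library totals gave 8 lower and 0 higher. In YPS128 YTM1 (1.19 ± 0.16, edgeR adjusted p = 6e-06), the helicase gene DRS1 (0.64 ± 0.19, edgeR adjusted p = 0.0133) and the UTP-B gene UTP6 (0.55, edgeR adjusted p = 0.0175) fell less than the mean, 3 members where 11.7% of all genes were higher. No member differed in BC187 or NCYC3290 by edgeR or by DESeq2, and at an unadjusted p under 0.05 there were 1 lower in BC187 and 5 lower in NCYC3290. In YPS128 11 were higher when all 35 libraries were used, 7 without NCYC3290 replicate 2 at 30 min and 24 with library totals.

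Before salt, the members were slightly lower in BY4743 than in the other strains. Against the mean of the 4 strains over the 12 unstressed libraries, 46 of 56 members were lower in BY4743, where 24.6% of all 5644 genes tested were lower (edgeR adjusted p under 0.05), with a median difference of −0.28, against 0.0019 for all genes. The differences were small beside the NaCl changes. CIC1 had 228, 179 and 221 CPM in unstressed BY4743, against 279 to 408 CPM over the 9 unstressed wild libraries, which do not overlap (−0.53 ± 0.06 from the mean, edgeR adjusted p = 1.68e-08). NSR1 followed at −0.48 ± 0.08 (edgeR adjusted p = 4.63e-05).

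In the wild strains the unstressed differences from this mean were smaller still. The mean includes BY4743, so its low values raise those of the wild strains. The wild strains were not compared with each other alone. In BC187 21 members were higher, where 13.7% of all genes were higher, with a median of 0.14 and with NSR1 (0.32 ± 0.07) and YTM1 (0.28 ± 0.06) furthest. In YPS128 15 were higher, where 22.8% of all genes were higher, led by CIC1 (0.32 ± 0.06) and BRX1 (0.25), and 2 were lower, DRS1 (−0.35 ± 0.06) and CBF5 (−0.26 ± 0.06), where 17.2% of all genes were lower. In NCYC3290 8 were higher, where 15.1% of all genes were higher, and NOP14 was lower (−0.18 ± 0.06), where 14.4% of all genes were lower. The replicates were blocked in this comparison, as in the study. Without the block 23 members were lower in BY4743, 1 was higher in each of BC187, NCYC3290 and YPS128, and 1 was lower in YPS128. Without replicate 1 the higher counts were 12 in BC187, 2 in NCYC3290 and 3 in YPS128. With library totals 34 were lower and 2 higher in BY4743, 22 were higher in BC187, 12 were higher in NCYC3290, and the direction turned in YPS128, where 11 were lower and 1 higher (median −0.08).

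**Figure D5:**
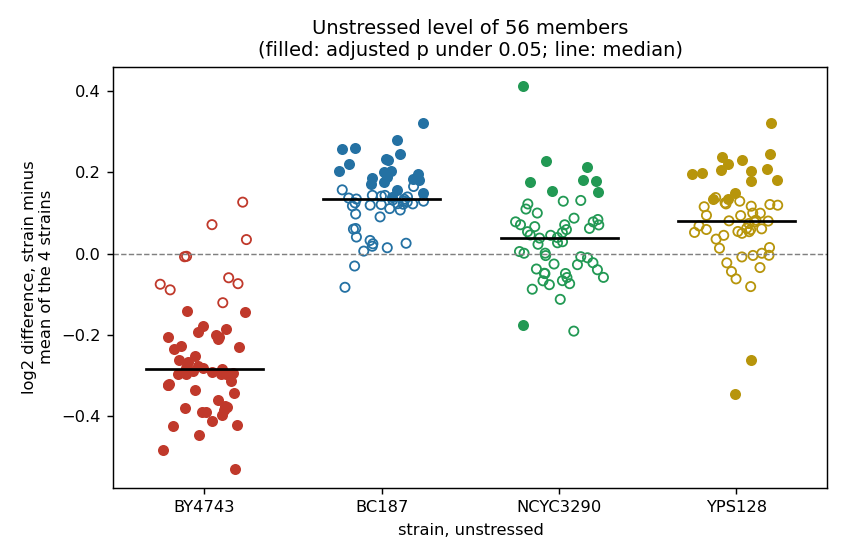
Log2 difference of each of the 56 members from the mean of the 4 strains in unstressed cells (y axis), by strain (x axis), with 1 point per gene, filled where the edgeR adjusted p was under 0.05, and a line at the median. In BY4743 46 points are filled below 0 and the median is −0.28, and the highest point, in NCYC3290, is CBF5 at 0.41.

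CBF5 was called in all 4 strains in unstressed cells. It had 1014, 942 and 905 CPM in NCYC3290 and 905, 729 and 978 CPM in BC187, against 573, 612 and 611 CPM in YPS128 and 497, 514 and 590 CPM in BY4743. The upper and lower pairs of strains do not overlap. Against the mean of strains NCYC3290 stood at 0.41 ± 0.06, BC187 at 0.26 ± 0.06, YPS128 at −0.26 ± 0.06 and BY4743 at −0.41 ± 0.06 (edgeR adjusted p = 1.96e-06, 0.00106, 0.00109 and 2.65e-06).

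The other genes of the pathway, from lists drawn up by function, are counted in the order 30 min and 3 h for each strain. For scale, falls called at 30 min over all genes made up 29.3% (BY4743), 15.8% (BC187), 10.8% (NCYC3290) or 5.94% (YPS128). By 3 h the shares had become 20.4%, 23.9%, 27.4% and 29.1%, strains in the same order. No list was tested against these shares. Of 37 further small-subunit and snoRNP factors, 35 and 37 fell in BY4743, with 7 and 37 for BC187, 6 and 37 for NCYC3290, and 1 and 34 for YPS128. Of 33 further large-subunit factors, 32 and 33 fell in BY4743, with 3 and 33 for BC187, 2 and 32 for NCYC3290, and 2 and 31 for YPS128. In these lists 2 small-subunit genes rose in NCYC3290 at 30 min, and 1 gene of each list in BC187 and 1 large-subunit gene in NCYC3290 rose at that time. Of 15 RNA polymerase I subunits and factors, 9 and 9 fell in BY4743, with 3 and 9 for BC187, 2 and 8 for NCYC3290 and 1 and 8 for YPS128, while 3 rose in YPS128 at 3 h and 1 in YPS128 at 30 min, in BC187 at 30 min and in NCYC3290 at both times. Of 10 RNA polymerase III subunits and their repressor gene MAF1, 10 and 9 fell in BY4743, with 2 and 10 for BC187, 1 and 10 for NCYC3290 and 2 and 8 for YPS128. The 3 RNA polymerase I genes that rose in YPS128 at 3 h were a smaller share than that of all genes, where 2045 of 5997 rose. The 3 of 15 that fell in BC187 at 30 min lay near the share of all genes. The largest change in each list was at 30 min in BY4743: RRS1 (−3.71 ± 0.24), NHP2 (−2.84 ± 0.22), RPA12 (−2.63 ± 0.18) and RPC31 (−2.52 ± 0.24).

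The 137 ribosomal protein genes, which make up the finished particle, had a median of −1.32 in BY4743 at 30 min and −0.80 at 3 h, with 130 and 120 fallen. In YPS128 they had medians of −0.18 and −2.12, with 6 and 135 fallen. Thus at 3 h the ribosomal protein median was lower than the members' median (−1.36) in YPS128 and higher than it (−1.59) in BY4743. In BC187 they had −0.41 and −0.99 (51 and 122 fallen) and in NCYC3290 −0.29 and −1.49 (21 and 134 fallen). The shares of all genes that fell, given above for the other lists, apply to these counts too. The 6 of 137 in YPS128 at 30 min were a smaller share than the 5.94% of all genes. The difference between the lists was not tested.

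Transcripts of the known regulators moved in both directions. SFP1, an activator of ribosome biogenesis genes, rose in BY4743 to 180, 219 and 295 CPM at 30 min, against 94.9, 116 and 90.2 CPM in unstressed cells (1.19 ± 0.18, edgeR adjusted p = 1.4e-06), and by 0.50 at 3 h. In the wild strains its 30 min libraries also lay above all unstressed ones, with log2 differences of 1.07 in BC187, 0.70 in NCYC3290 (both called) and 0.55 in YPS128 (edgeR adjusted p = 0.0632), and at 3 h it rose by 1.06 to 1.28. STB3, the RRPE-binding repressor, had 102, 110 and 102 CPM in BY4743 at 30 min, against 35.8, 43.2 and 56.1 CPM in unstressed cells (1.22 ± 0.14, edgeR adjusted p = 2.49e-08). At that time it had 17.2, 25.6 and 25.4 CPM in BC187, against 30.4, 35.6 and 35.8 CPM in unstressed cells (−0.59 ± 0.16, edgeR adjusted p = 0.00383). The BY4743 response of STB3 was above the mean response (1.05 ± 0.13, edgeR adjusted p = 2.2e-07) and the BC187 response below it (−0.76 ± 0.14, edgeR adjusted p = 0.00177). At 3 h STB3 lay above all unstressed libraries of the same strain in each wild strain. It had 36.6, 48.1 and 50.2 CPM in BC187 and 45.9, 58.0 and 58.1 CPM in NCYC3290. In YPS128 it had 59.1, 66.7 and 73.7 CPM, against 33.3, 36.1 and 42.7 CPM in unstressed cells. The BY4743 libraries at 3 h, 45.1, 56.6 and 69.4 CPM, overlapped the unstressed ones.

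DOT6, which encodes a PAC-binding repressor, was higher in unstressed BY4743, at 132, 186 and 126 CPM, against 46.0 to 86.1 CPM over the 9 unstressed wild libraries (0.92 ± 0.06 from the mean of strains, edgeR adjusted p = 1.11e-13). It fell in BY4743 at 30 min (−0.90 ± 0.16, edgeR adjusted p = 2.6e-05). Its paralogue TOD6 had 87.1, 19.4 and 21.7 CPM in BY4743 at 30 min, against 83.8, 87.2 and 73.8 CPM in unstressed cells, with replicate 1 again apart from the others (−0.94 ± 0.37, edgeR adjusted p = 0.0287). CRF1, a corepressor of ribosomal protein genes, rose at 30 min in BY4743 (1.23 ± 0.21), NCYC3290 (0.92 ± 0.21) and YPS128 (0.97 ± 0.28). At 3 h it rose in BC187 (0.79 ± 0.21), NCYC3290 (1.94 ± 0.20) and YPS128 (2.01 ± 0.24). IFH1, the coactivator it competes with, fell at 30 min in NCYC3290 (−0.86 ± 0.22) and YPS128 (−1.08 ± 0.27), the kinase gene SCH9 fell at 30 min in BY4743 (−0.67 ± 0.19), and FHL1 was not called in any strain. RNA levels do not measure the activity of these proteins.

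Set beside the promoter elements, the 47 members with both PAC and RRPE had a median of −1.64 in BY4743 at 30 min, the 6 with PAC only −1.12, the 2 with RRPE only −1.19 and UTP22, with neither, −0.89. The PAC only class includes MAK5 at 0.85, which was −1.37 without BY4743 replicate 1 at 30 min. The order was not the same in the wild strains at 30 min. There UTP22 had −0.49 (BC187), −0.50 (NCYC3290) and −0.27 (YPS128), against medians of −0.12, −0.22 and −0.18 for the 47. The 6 with PAC only had −0.08, −0.23 and −0.26, and the 2 with RRPE only had 0.10, 0.20 and 0.13. At 3 h the medians of the 47 were −1.61 (BY4743), −1.64 (BC187), −1.74 (NCYC3290) and −1.46 (YPS128). The 6 with PAC only had −1.52, −1.49, −1.51 and −1.18, and UTP15 and UTP30, with RRPE only, had −1.17, −1.03, −0.97 and −0.57, both in the same order of strains. UTP22 had −0.62, −1.06, −1.25 and −1.22, the BY4743 value lying above the range of the 47 (−2.21 to −0.98). The classes without both elements hold few genes, and no test was made. YTM1 and NUG1 carry both elements, as do NSR1 and CIC1.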

How the data were processed

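Total RNA was depleted of rRNA and sequenced with a stranded kit. The authors trimmed reads with Trimmomatic, aligned them with bwa-mem to S288c R64-1-1 and obtained a raw count for each gene from HT-Seq, the unit of the deposited table. The strand and multi-mapping settings of the counting are not given in the sources used here, and wild-strain reads were aligned to the laboratory reference. Of 6717 genes, 243 had 0 counts in all libraries.

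Here the counts were filtered with edgeR's filterByExpr, normalized by TMM (factors 0.632 to 1.55) and tested with edgeR 4.0.16 (R 4.3.3, limma 3.58.1) by quasi-likelihood with Benjamini-Hochberg adjustment, a threshold of 0.05 and the replicate as a block. One fit held 34 libraries and 5997 genes (NaCl against unstressed, 3 h against 30 min, each strain's response against the mean response). It left out YPS128 replicate 3 at 3 h, since the study displays 2 YPS128 replicates in its heat map of the NaCl response. The study does not name the library it left out. The other fit held the 12 unstressed libraries and 5644 genes (each strain against the mean of strains). The biological coefficient of variation was 15.8% and 8.50%. Strains were grown in parallel within a replicate, as the study states. As a check, same-numbered libraries had deviations correlated over 0.1 in 18 of 18 pairs of strains unstressed, 5 of 15 at 30 min and 12 of 15 at 3 h. P-values measure the spread between libraries of a group beyond the replicate block. This block was not by culture, so libraries of the same culture at different times were treated as independent. Their deviations were correlated over 0.1 in 18 of 33 pairs (−0.46 to 0.52). Errors of log2 differences are standard errors derived from the log2 difference and the F statistic of its quasi-likelihood test.

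The members and gene lists were chosen with earlier results of these data known. Named genes were representatives of each role, the 2 highest and 2 lowest members per strain and time, members called against the common direction, the 2 largest differences between strains in each direction, and, of other lists, the regulators and the member with the largest change. Alternatives were DESeq2 1.42.0, other scalings, no filter, a minimum fold, other blocks, 35 libraries, leaving out replicates and, chosen after seeing the data, leaving out single libraries. The edgeR script was tested on simulated data. Promoters and loci came from RefSeq (R64), which matched 6025 gene IDs.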

Additional observations from a re-analysis of the deposited data

Results flagged for a closer look

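Some members' NaCl responses passed the edgeR test of the difference from the mean response of the strains. At 30 min 55 members were lower than the mean response in BY4743, 2 were higher in BC187, 2 in NCYC3290 and 12 in YPS128. At 3 h 3 were lower and 1 was higher in BY4743, and 3 were higher in YPS128. These 3 h counts are below the shares of all genes (11.9% lower and 10.6% higher in BY4743, 11.7% higher in YPS128). The gene NSR1 had the largest difference at 30 min, −2.33 in BY4743 and 1.17 in YPS128 (log2), and YTM1 had the largest at 3 h, 1.19 in YPS128. The strains share the mean they were set against, so their differences are not independent, and the low BY4743 values raise the others.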

How the results depend on the processing

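The fall of the members in BY4743 at 30 min and in all strains at 3 h kept its count within 1.5 times under every setting tried, apart from library totals in YPS128. In the counts below, L is lower, H is higher, and R is a response set against the mean response. DESeq2's size factors gave 2 L in YPS128 at 30 min, R of 3 H in BY4743 at 3 h, 1 H in BC187 and 1 H in NCYC3290 at 30 min, and 2 L in unstressed NCYC3290. Library totals gave 0 H in BC187 and NCYC3290 at 30 min, 30 L in YPS128 at 3 h and 13 L there against 30 min, R of 8 L and 0 H in BY4743 at 3 h, 0 H in BC187, 1 H in NCYC3290 and 3 H in YPS128 at 30 min and 24 H in YPS128 at 3 h, and, unstressed, 0 L in NCYC3290 and 11 L and 1 H in YPS128. They turned the sign in YPS128 at 3 h of UTP30 (0.16), RPF1 (0.0436) and YTM1 (0.58). Without a filter YPS128 had 0 L at 30 min. DESeq2's Wald test gave 3 L in YPS128 at 30 min, R of 4 H in BY4743 at 3 h and 6 H in BC187 and in NCYC3290 at 30 min, and 5 H in unstressed NCYC3290. All 35 libraries gave 2 L in YPS128 at 30 min, R of 2 H in BY4743 and 11 H in YPS128 at 3 h.

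Without the replicate block there were 3 L in NCYC3290 and 2 L in YPS128 at 30 min, R of 1 H in BC187 and 0 H in NCYC3290, and, unstressed, 23 L in BY4743, 1 H in BC187, 0 L and 1 H in NCYC3290 and 1 L and 1 H in YPS128. A replicate block by culture gave 0 H in BC187 and 0 L in YPS128 at 30 min, and R of 1 H, 0 H and 5 H in BC187, NCYC3290 and YPS128. One fit to all time points gave, unstressed, 21 L in BY4743, 1 H in BC187, 0 L and 1 H in NCYC3290 and 1 L and 1 H in YPS128. A minimum log2 difference of 1 left 0 calls at 30 min in the wild strains and 0 unstressed, 3 L and 1 H in BY4743 between the times, and R of 28 L in BY4743, 0 H in BC187, 0 H in NCYC3290 and 1 H in YPS128 at 30 min, 0 in BY4743 and 1 H in YPS128 at 3 h.

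With 1 replicate or library left out, the ranges at 30 min were 0 to 1 H in BC187, 0 to 37 L and 0 to 2 H in NCYC3290 and 0 to 6 L in YPS128, and between the times 55 to 56 L in BC187, 4 to 14 L and 8 to 14 H in BY4743, 53 to 56 L in NCYC3290 and 40 to 50 L in YPS128. R ranged over 50 to 55 L in BY4743, 0 to 29 H in BC187, 0 to 18 H in NCYC3290 and 0 to 23 H in YPS128 at 30 min, and 0 to 3 L and 0 to 4 H in BY4743 and 1 to 7 H in YPS128 at 3 h. Unstressed they were 35 to 45 L in BY4743, 12 to 28 H in BC187, 0 to 3 L and 2 to 16 H in NCYC3290 and 2 to 3 L and 3 to 11 H in YPS128. MAK5 in BY4743 at 30 min ranged over −1.37 to 1.43. The cause of these moves was not tested.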
